A study of Homo sapiens with 8 samples.

Results

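Cells make the building blocks of DNA by removing an oxygen from ribonucleotides, and 7 genes of that pathway and of the neighbouring deoxycytidine pathway are described here: RRM1, RRM2, RRM2B, DCK, CDA, DCTD and TYMS. They were chosen by gene symbol out of 14884 genes read on 8 Affymetrix arrays, 1 array per clone, and all 7 were found, each with 1 probe set. The arrays held RNA from PC-3, an established human prostate cancer line that grows without androgen. In 4 clones a p-Lenti lentiviral vector carried RWDD4 (clones 17, 24, 5 and 6), and 4 control clones carried the same vector empty (clones 2, 3, 4 and 5). All 8 clones had been selected with blasticidin ("blastocydin" in the labels) and grown from clonal isolates, and the labels list no further treatment. Each sample is a clonal isolate, so differences between clones of the same vector enter the spread. Whether clones came from separate transductions is not stated, so p-values measure the spread between these clones. In such bulk RNA, fewer cells of a type and less RNA per cell cannot be told apart.

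Ribonucleotide reductase is built from a large subunit, RRM1, which holds the catalytic and regulatory sites, and a small subunit that supplies a radical. The small subunit is RRM2 in dividing cells, where it is made for S phase and destroyed afterwards, and RRM2B in resting or damaged cells and for mitochondrial DNA. DCK adds the first phosphate to deoxycytidine and to the drugs gemcitabine and cytarabine, which do nothing without it, while CDA deaminates the same nucleosides and inactivates the drugs. DCTD deaminates deoxycytidine monophosphate to deoxyuridine monophosphate, from which TYMS, the target of fluorouracil, makes thymidine monophosphate. RRM1 is itself a target of gemcitabine once the drug has been phosphorylated.

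Start-site windows of the members were searched for short motifs that are known from S-phase genes, and the matches are shown as a description. Their part in the members' differences was not tested. RefSeq windows of 300 bases (250 before and 50 after a start, build GRCh38.p14) were at hand for 6 of the 7 members, with 8 windows in all. Each line gives 30 bases of the plus strand, with the motif in capitals. RRM1 held 1 CCAAT box, the letters bound by the factor NF-Y, 28 bases before its start (chr11:4094645-4094674), and one RRM2 window held 3, at 123, 93 and 66 bases before its start (chr2:10122604-10122633, chr2:10122634-10122663 and chr2:10122661-10122690). The other RRM2 window, from an earlier start, held 1 CCAAT at its far edge.
RRM1 CCAAT: gcatgtccatatCCAATggggcccatggga
RRM2 CCAAT at 123: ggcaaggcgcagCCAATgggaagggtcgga
RRM2 CCAAT at 93: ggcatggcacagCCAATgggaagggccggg
RRM2 CCAAT at 66: ggggcaccaaagCCAATgggaagggccggg
TYMS E2F-type: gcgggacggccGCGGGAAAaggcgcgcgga
DCK E2F-type: gctgcctccgcGCGCCAAAgtcaaaccccg
CDA E2F-type: cggagctcctgTTTCCCGCtgctctgctgc

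The E2F-type letters searched, for the factors that drive S-phase genes, were TTTCCCGC, TTTGGCGC and TTTCGCGC, on both strands. TYMS held a match 39 bases before its start (chr18:657603-657632, reverse letters). DCK held one 22 bases after its start (chr4:70993659-70993688, reverse letters). CDA held one beginning 3 bases before its start (chr1:20589083-20589112). So the E2F-type letters stood in 3 members, of which 2 rose and CDA fell, and CCAAT stood in 2 members, which both rose. Over all 35116 windows 34.6% held CCAAT, 3.26% held it 3 times or more, and 2.74% held an E2F-type match. The GC box GGGCGG, which Sp factors bind, stood in 4 members and in 45.0% of all windows; TTTGAA, the CHR element of cell cycle genes, stood in RRM1 alone and in 15.2% of all windows. A member was counted if any of its windows held a match, while the shares are of single windows. These are matches of letters, and binding was not measured. None of the matches shown overlapped another of the motifs.

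Of the 7 members 5 were higher and 1 was lower in the RWDD4 clones by the limma fit over all genes at an adjusted p under 0.05, and DCTD did not pass. The subunit genes RRM2B and RRM1 had the largest rises, 4.22-fold and 2.91-fold; TYMS, RRM2 and DCK rose 1.51-fold, 1.45-fold and 1.38-fold, and CDA was 1.36-fold lower. In these arrays 46.7% of all genes passed the same test, 25.1% upward and 21.6% downward, so passing it is common here. The median difference was 0.53 over the members and -0.08 over all genes, on the log2 scale. The groups did not overlap in 6 of 7 members, against 44.8% of all genes (5 higher against 23.7%, 1 lower against 21.1%). RRM1 and RRM2B rose at least 2-fold, as did 9.74% of all genes. After cyclic loess scaling 3980 genes rose and 2200 fell, in place of 3741 and 3214, and the same 6 members passed. After quantile normalization 3429 genes rose and 3694 fell, and 5 members passed. With each array's trend over the genomic span of genes removed 4 members passed. With the axis of clone differences described below as a covariate 0 members passed.

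**Figure D1:**
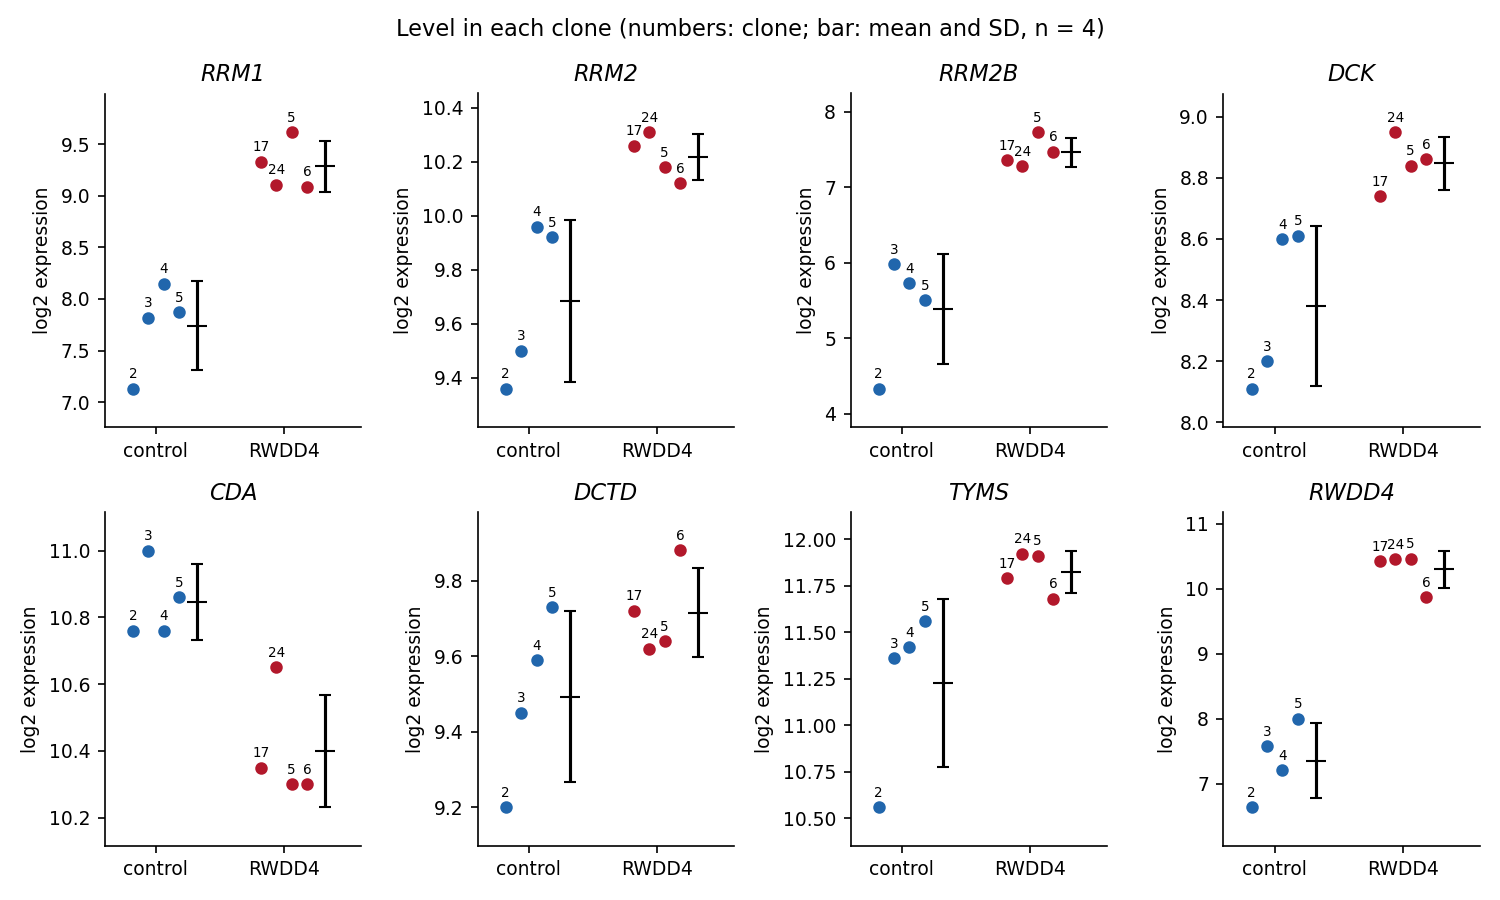
Log2 expression of the 7 members and of RWDD4 (vertical axes, each with its own range) in the 4 control clones (blue) and the 4 RWDD4 clones (red), with the clone number above each point and the mean and SD beside it. The groups are apart in every panel except DCTD, and control clone 2 is the lowest point in 6 of the 7 members and in RWDD4.

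The values are log2 values deposited by the authors, made with RMA, which brings arrays to a common scale; they set 1 gene against itself in other clones, not against other genes. RWDD4 itself ranged from 9.87 to 10.46 where the vector carried it and from 6.64 to 8.0 where it was empty, a difference of 2.94 (SE 0.25; adjusted p 5.98e-05 by limma; exact permutation p 0.0286, two-sided, the smallest that 4 against 4 clones allow). All 6 measured epithelial markers had group means above the median of all probe sets (4.92), from 6.40 for CD44 and EPCAM to 11.01 for KRT18; KRT8, KRT18, KRT19 and CLDN4 fell and CD44 rose. Both measured stromal genes, DCN and LUM, lay below that median, at 2.70 to 3.08. Of 2 blood genes CD14 lay below it (4.09 with RWDD4, 4.51 in control clones) and CD68 above it (10.21 and 10.60), and both fell. Of 3 endothelial genes VWF lay below it (4.53 and 4.84) and fell, while PECAM1 (5.44 and 5.57) and KDR (8.59 and 8.25) lay above it and did not pass. The part of these markers in the members' differences was not tested.

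RRM1, the large subunit, separated the groups widely. Its level was 9.33, 9.11, 9.62 and 9.09 in RWDD4 clones 17, 24, 5 and 6, and 7.13, 7.82, 8.15 and 7.87 in control clones 2, 3, 4 and 5. The nearest clones of the groups, RWDD4 clone 6 and control clone 4, were 0.95 apart, and the control clones spread over 1.01. The mean was 9.29 ± 0.25 (SD, n = 4) against 7.74 ± 0.43 (SD, n = 4), a difference of 1.54 (SE 0.20; 95% interval 1.10 to 1.99; adjusted p 0.000206 by limma). RRM1 stood at rank 438 of all genes by size of rise. It passed with any clone left out, at 1.34 to 1.68.

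RRM2, the small subunit of S phase, rose less. It read 10.26, 10.31, 10.18 and 10.12 in RWDD4 clones 17, 24, 5 and 6, and 9.36, 9.50, 9.96 and 9.92 in control clones 2, 3, 4 and 5. The RWDD4 clones lay within 0.19 of each other, while the control clones fell into a lower pair, clones 2 and 3, and a higher pair, clones 4 and 5, close to the RWDD4 clones. The means were 10.22 ± 0.09 and 9.68 ± 0.30 (SD, n = 4 each), a difference of 0.53 (SE 0.14; 95% interval 0.22 to 0.84; adjusted p 0.0102 by limma). With each array's trend over the genomic span of genes removed, the difference was 0.20 (adjusted p 0.245) and did not pass. By the span of its whole record in the reference gene table, RRM2 lies in the ninth of 10 equal classes of protein-coding genes. In that class 51.1% of genes rose and the median difference was 0.37. Spans of single transcripts were not used.

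RRM2B, the small subunit outside S phase, had the largest rise of the members and rank 76 among all genes. It lay at 7.36, 7.28, 7.73 and 7.47 in RWDD4 clones 17, 24, 5 and 6, and at 4.33, 5.98, 5.73 and 5.50 in control clones 2, 3, 4 and 5. Control clone 2 lay 1.16 below the next control clone and under the median of all probe sets. The means were 7.46 ± 0.19 and 5.39 ± 0.73 (SD, n = 4 each), a difference of 2.08 (SE 0.29; 95% interval 1.43 to 2.72; adjusted p 0.000313 by limma). Without control clone 2 the difference was 1.73, and with any clone left out it lay between 1.73 and 2.27 and passed. With the span trend removed RRM2B and RRM1 stayed past the test, at 1.90 and 1.30.

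Without a term for the axis of clone differences described below, RRM1 and RRM2B gained on RRM2. Within an array, the log2 value of RRM1 minus that of RRM2 was -0.93, -1.20, -0.57 and -1.03 in RWDD4 clones 17, 24, 5 and 6, and -2.22, -1.68, -1.82 and -2.05 in control clones 2, 3, 4 and 5. These differences serve to compare clones, since values of separate probe sets do not rank the genes. The groups did not overlap, and RRM1 gained 1.01 (SE 0.18), or 2.01-fold, over RRM2. RRM2B gained 1.54 (SE 0.33), or 2.91-fold, over RRM2. Its within-array difference ran from -3.03 to -2.46 with RWDD4 and from -5.02 to -3.52 with the empty vector. Both had an exact permutation p of 0.0286 (two-sided, n = 4 each, the smallest possible) and 0.0429 adjusted over the 3 subunit pairs. The members behind these pairs were chosen with earlier results of these data known, which the p-values do not take into account. RRM2B gained 0.53 (SE 0.21) over RRM1, with an exact permutation p of 0.0857, and control clone 3, at -1.84, lay among the RWDD4 clones (-1.96 to -1.62). The gains over RRM2 were 0.89 to 1.10 for RRM1 and 1.30 to 1.80 for RRM2B with 1 clone left out; the 1.30 is without control clone 2, whose RRM2B was not shown to be above background. With the axis position in the model they were 0.51 (SE 0.36) and 0.27 (SE 0.51), and RRM2B against RRM1 turned to -0.25 (SE 0.33), with no test.

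**Figure D2:**
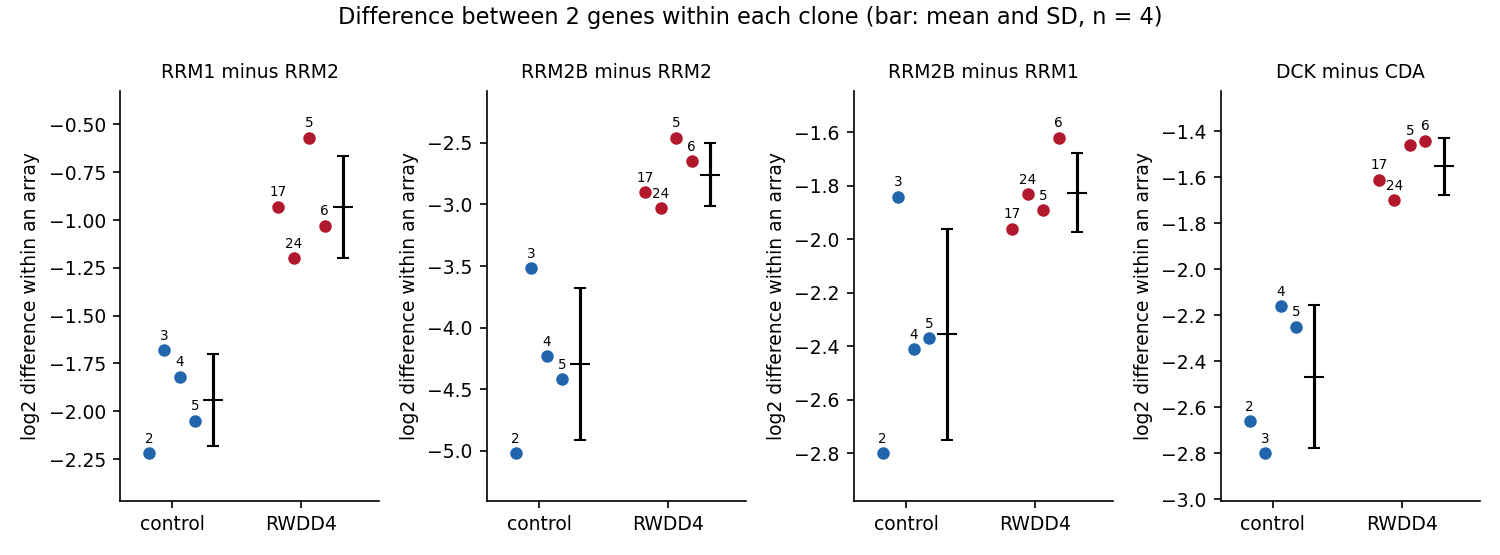
Difference between the log2 values of 2 genes within each array (vertical axes) for the 3 pairs of reductase subunits and for DCK minus CDA, in control clones (blue) and RWDD4 clones (red), with clone numbers and the mean and SD. The groups are apart for RRM1 minus RRM2, RRM2B minus RRM2 and DCK minus CDA, and control clone 3 lies among the RWDD4 clones for RRM2B minus RRM1.

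TYMS, which makes thymidylate, read 11.79, 11.92, 11.91 and 11.68 in RWDD4 clones 17, 24, 5 and 6, and 10.56, 11.36, 11.42 and 11.56 in control clones 2, 3, 4 and 5. RWDD4 clone 6 and control clone 5 were only 0.12 apart, and control clone 2 stood well below the other control clones. The means were 11.82 ± 0.11 and 11.23 ± 0.45 (SD, n = 4 each), a difference of 0.60 (SE 0.19; 95% interval 0.18 to 1.02; adjusted p 0.0250 by limma). The difference was 0.38 without control clone 2 and still passed (adjusted p 0.0127); it did not pass without RWDD4 clone 24 (0.56, adjusted p 0.0577) or RWDD4 clone 5 (0.57, adjusted p 0.0622). In the reference table the gene ENOSF1 overlaps TYMS, and whether the TYMS probe set reads any of its transcript was not determined.

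DCTD, which feeds TYMS, did not pass the test. It lay at 9.72, 9.62, 9.64 and 9.88 in RWDD4 clones 17, 24, 5 and 6, and at 9.20, 9.45, 9.59 and 9.73 in control clones 2, 3, 4 and 5. Control clone 5 was above 3 of the 4 RWDD4 clones. The means were 9.71 ± 0.12 and 9.49 ± 0.23 (SD, n = 4 each), and the difference of 0.22 had a 95% interval of -0.05 to 0.49 (SE 0.12; adjusted p 0.156 by limma). It lay at 0.12 without control clone 2 and 0.30 without control clone 5, and at 0.08 after quantile normalization, and passed in none of these.

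DCK, the kinase that activates deoxycytidine and its drug analogs, rose by 0.47. Its values were 8.74, 8.95, 8.84 and 8.86 in RWDD4 clones 17, 24, 5 and 6, and 8.11, 8.20, 8.60 and 8.61 in control clones 2, 3, 4 and 5. As in RRM2, control clones 2 and 3 were low and control clones 4 and 5 near the RWDD4 clones. The means were 8.85 ± 0.08 and 8.38 ± 0.27 (SD, n = 4 each), with an SE of 0.13 and a 95% interval of 0.18 to 0.75 (adjusted p 0.0132 by limma). DCK did not pass after quantile normalization (0.30, adjusted p 0.0720) or with the span trend removed (0.27, adjusted p 0.0891).

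CDA, the deaminase that opposes DCK, was the 1 member that fell. It read 10.35, 10.65, 10.30 and 10.30 in RWDD4 clones 17, 24, 5 and 6, and 10.76, 11.00, 10.76 and 10.86 in control clones 2, 3, 4 and 5. RWDD4 clone 24 stood 0.30 above the next RWDD4 clone and 0.11 below the lowest control clones. The means were 10.40 ± 0.17 and 10.85 ± 0.11 (SD, n = 4 each), a difference of -0.45 (SE 0.11; 95% interval -0.69 to -0.21; adjusted p 0.00624 by limma). CDA passed in all 8 fits with 1 clone left out, at -0.53 to -0.40, and in the 8 other fits made without the within-group axis, at -0.58 to -0.40. Within an array, DCK minus CDA was -1.61, -1.70, -1.46 and -1.44 in RWDD4 clones 17, 24, 5 and 6 and -2.66, -2.80, -2.16 and -2.25 in control clones 2, 3, 4 and 5. That is a gain of 0.91 (SE 0.17), or 1.89-fold, given as a description because the pair was chosen with earlier results known.

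**Figure D3:**
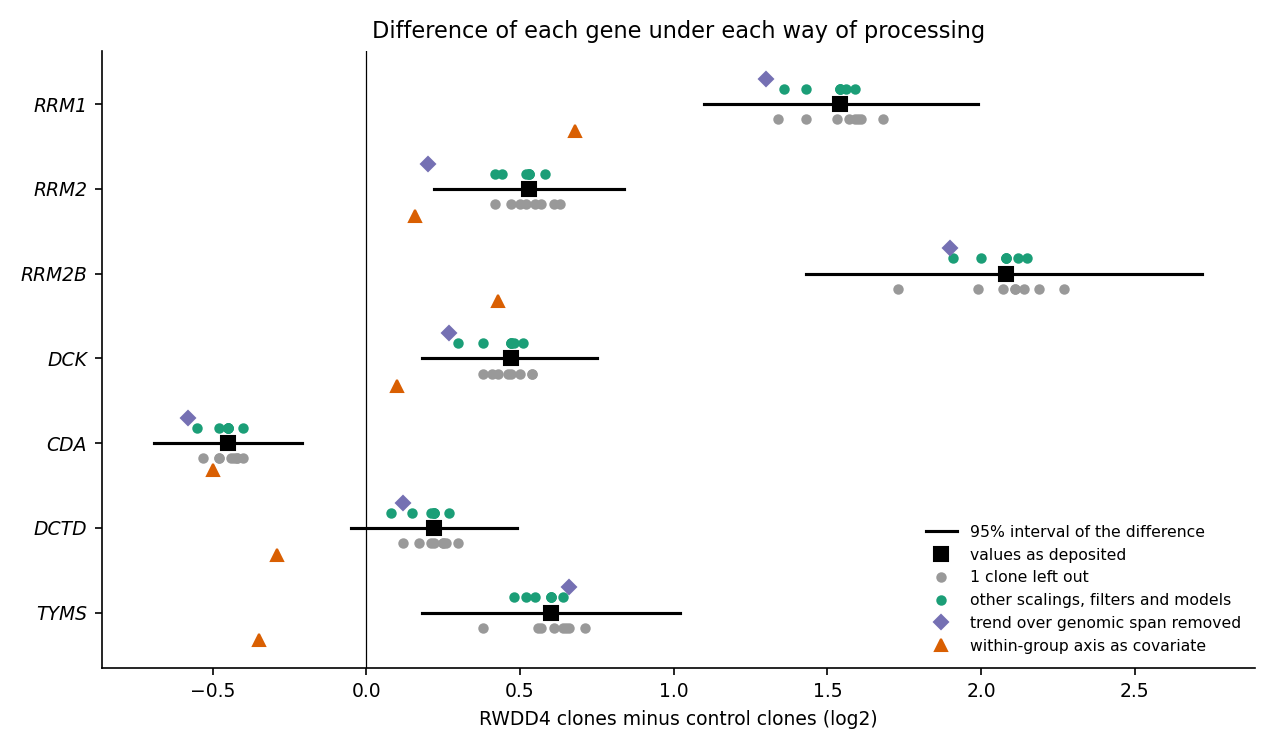
Difference between RWDD4 and control clones (horizontal axis, log2) for each member from the deposited values (black square, 95% interval), with 1 clone left out (grey), with other scalings, filters and models (green), with the span trend removed (purple) and with the axis position added to the model (orange), which the next paragraph defines. RRM1, RRM2, RRM2B, DCK and CDA keep their direction throughout, and TYMS and DCTD lie below 0 with the axis position added.

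The clones of each group also differed among themselves along a shared axis. The axis is the pattern across genes that takes up the largest share, 38.9%, of the variation within groups. Clone positions on it were 21.96, 19.7, 32.63 and 35.9 for RWDD4 clones 17, 24, 5 and 6, and -58.36, -15.17, -24.44 and -12.21 for control clones 2, 3, 4 and 5, so the groups were apart on it too. With the position as a covariate none of the 7 members passed in limma, and none had an unadjusted p under 0.05; 1 gene of all 14884 passed. The differences were then 0.68 (SE 0.33) for RRM1, 0.16 (SE 0.28) for RRM2, 0.43 (SE 0.32) for RRM2B, 0.10 (SE 0.26) for DCK and -0.50 (SE 0.24) for CDA. TYMS and DCTD changed sign, to -0.35 (SE 0.27) and -0.29 (SE 0.20). The vector and the axis cannot be told apart for the members in these 8 clones. Control clone 2, at the far end of the axis, was the lowest of all 8 clones in 6 members, as it was in 75.5% of all genes that rose and 26.0% of all genes. The SD was larger in the control clones than in the RWDD4 clones for 6 members, all but CDA. The same held for 70.9% of all genes that rose and 64.0% of all genes.

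**Figure D4:**
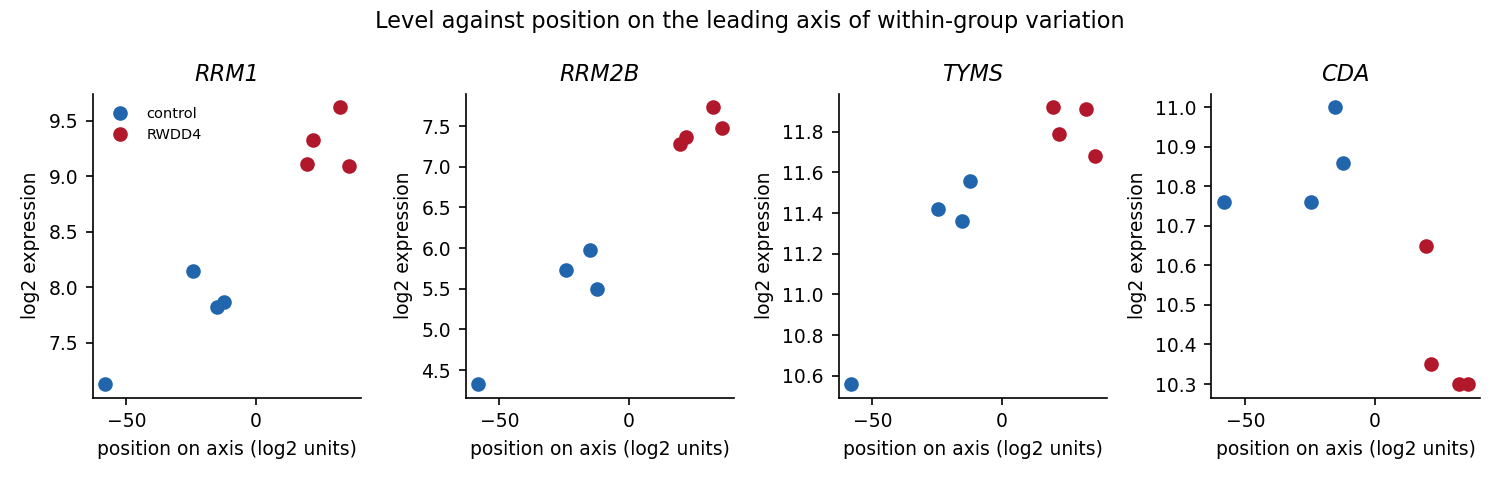
Log2 expression of RRM1, RRM2B, TYMS and CDA (vertical axes) against the clone's place on the axis described above (horizontal axis, log2 units summed over genes), control clones in blue and RWDD4 clones in red. Control clone 2 lies at -58.36 with the lowest RRM1, RRM2B and TYMS, while its CDA, at 10.76, equals that of control clone 4.

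Correlations over the 8 arrays describe how the members ran together (the same 8 arrays for every gene, with no test). RRM1 and RRM2B ran together, with a Pearson r of 0.98 over the values and 0.85 over deviations from the group means. RRM2 ran with DCK, at 0.98 and 0.93, and over values each was among the 3 genes nearest to the other. Most of the deviation of RRM2 and DCK lay in the control clones, where clones 2 and 3 were low in both genes. The SDs were 0.30 and 0.27 there, against 0.09 and 0.08 in the RWDD4 clones. The pair RRM1 and RRM2B and the pair RRM2 and DCK were not apart from each other. RRM1 and RRM2 had 0.90 and 0.69, and TYMS had 0.74 to 0.85 with RRM1, RRM2, RRM2B and DCK over deviations. High r was common among other genes too. Over values, 83.7% of genes had a lower r with RRM1 than RRM2 did, and 98.6% a lower r than RRM2B. With RRM2B, 76.7% had a lower r than RRM2 and 81.3% a lower r than TYMS. With RRM2, 99.7% had a lower r than DCK over deviations. DCTD had 0.55 to 0.74 with the members other than CDA over deviations. CDA followed none of them within groups, with r from -0.12 to 0.35 over deviations. The genes nearest to RRM1 were XRCC6 and MCM10, of end joining and of replication, at 0.999 over values, and the kinesin KIF4A at 0.997; the same 3 were nearest over deviations. Nearest to RRM2 were TIMELESS, a replication fork gene, at 0.980, DCK, and TRIM2 at 0.976; over deviations they were GRHL2, the glycolytic gene GPI and GAL3ST3. RRM2B was nearest to the cohesin release gene WAPL at 0.997, PDCL3 and CALU, and over deviations to MTIF2, PDCL3 and SNX7. For DCK they were TRIM2 at 0.989, CEP85 and RRM2, and over deviations RCC2, PRAP1 and DERA. CDA was nearest to NARF at 0.984, PI4K2A at 0.981 and ADA, the adenosine deaminase, at 0.979, and over deviations to MYO7B, IGFBP3 and GBP3. TYMS was nearest to CYFIP1 at 0.985, PSPC1 and ICMT, and over deviations to CYFIP1, RMC1 and PRPS1. DCTD was nearest to THOC5 at 0.976, TCF20 and TMEM248, and over deviations to PRAMEF19, SMNDC1 and PHLPP1.

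Other genes of nucleotide supply moved in both directions. Of 77 genes on 5 supply lists 39 were measured, and 15 rose and 9 fell, which is 61.5% past the test against 46.7% of all genes, with a median difference of -0.03. None of the 16 genes of nucleoside transport and dephosphorylation, which move deoxycytidine drugs across the membrane or undo the work of DCK, was among the genes analysed here.

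In deoxynucleotide synthesis and salvage 3 of 11 measured genes rose and 4 fell (median -0.09), against 25.1% and 21.6% of all genes. SAMHD1, which breaks down deoxynucleoside triphosphates, rose by 0.95 (1.93-fold; 9.71 ± 0.21 against 8.76 ± 0.48, SD, n = 4 each; adjusted p 0.00436 by limma). DUT, which turns dUTP into the substrate of TYMS, rose by 0.50 (adjusted p 0.0145 by limma), although its groups overlapped. ADA, which deaminates adenosine and deoxyadenosine, and NME4, a mitochondrial kinase of nucleoside diphosphates, fell by 0.51 and 0.49. With the span trend removed NME4 did not pass (-0.24, adjusted p 0.0692).

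In pyrimidine synthesis and breakdown 3 of 10 genes rose and none fell by limma, against 25.1% and 21.6% of all genes. In this list 2 genes were lower at an unadjusted p under 0.05, and the median was -0.02. The genes that rose were CTPS2, which makes CTP, by 0.83 (1.78-fold), DPYD, which degrades uracil and fluorouracil, by 0.63 (1.55-fold) and UMPS, which makes UMP, by 0.62 (1.54-fold). The uridine phosphorylase UPP1 lay at -0.35 (adjusted p 0.0737 by limma). After quantile normalization 1 gene of this list fell, beside 3694 of all 14884 genes.

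Purine synthesis held more rises, with 7 of 12 genes up and 3 down (median 0.48), against 25.1% and 21.6% of all genes. GMPS, which makes GMP, rose by 1.65 (3.14-fold; 10.27 ± 0.16 against 8.62 ± 0.46, SD, n = 4 each; adjusted p 0.000133 by limma). PPAT, the committing enzyme of the pathway, rose by 1.45 (2.74-fold), PRPS2, which makes the ribose donor, by 1.36 (2.57-fold), and the salvage enzyme HPRT1 by 0.88 (1.84-fold). In the folate cycle, which supplies TYMS with its methyl donor, 2 of 6 genes rose and 2 fell (median 0.01). MTR, methionine synthase, rose by 1.06 and MTHFD1L of the mitochondrial branch by 0.50, and FPGS, which retains folates and antifolates in the cell, and FTCD fell by 0.57 and 0.42. MTHFD1L did not pass after quantile normalization (0.31, adjusted p 0.0782 by limma) or with the span trend removed (0.22, adjusted p 0.183).

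Among S-phase genes of the E2F program, to which RRM1, RRM2 and TYMS are counted, 9 of 22 rose and 5 fell (median 0.27). Of all genes 25.1% rose and 21.6% fell. MCM6 of the replicative helicase rose by 1.39 (2.62-fold), the cyclin CCNE2 by 1.22 (2.33-fold), E2F7, a repressor of the family, by 1.08 (2.11-fold) and CDC6, which loads the helicase, by 1.05 (2.07-fold). The 5 genes that fell, named after their values were seen, were E2F1 (-0.74), CDT1 (-0.63), which loads the helicase with CDC6, the helicase subunits MCM5 (-0.40) and MCM2 (-0.38), and E2F2 (-0.38); the groups overlapped in MCM2. Of the genes that regulate the reductase 4 of 11 rose and none fell by limma, against 25.1% and 21.6% of all genes. In this list 1 gene was lower at an unadjusted p under 0.05, and the median was 0.02. The genes that rose were CDK1 at 1.85 (3.60-fold), the checkpoint kinase WEE1 at 1.51 (2.85-fold), ATR at 1.24 and its effector CHEK1 at 1.23 (2.34-fold). ATR stabilises RRM2 under replication stress. The control values of ATR, 4.35 to 4.51, were all under the median of probe sets, so no fold is given. CCNF, the F-box protein that marks RRM2 for destruction, lay at -0.10 and FZR1, of the complex that destroys it in G1, at -0.25; both were chosen after their values were seen, and neither passed. After quantile normalization 3 genes of this list fell, beside 3694 of all 14884 genes.

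**Figure D5:**
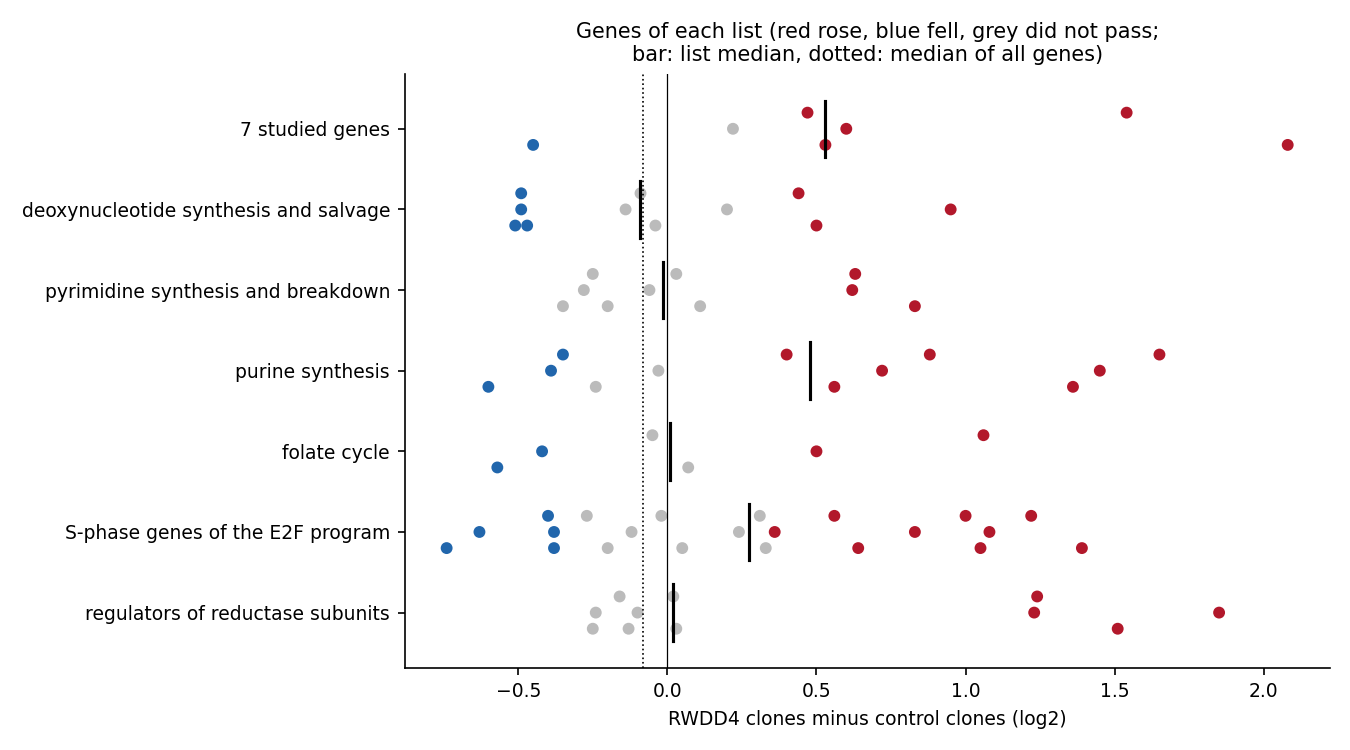
Difference between RWDD4 and control clones (horizontal axis, log2) for the 7 members and for the measured genes of 6 lists, red where a gene rose, blue where it fell and grey where it did not pass, with list medians as bars and the median of all genes, -0.08, dotted. RRM2B, at 2.08, lies furthest to the right, and the members and the purine list have the highest medians, 0.53 and 0.48.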

How the data were processed

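The 7 members and all lists were chosen with earlier results of these data known. The authors deposited log2 values, 1 per probe set and array. Partek and RMA are named, with no version, in the submitters' processing notes. The sources used here give no genome build, batch or scan date. RMA compresses small signals, and the number of arrays limits the precision. Of 53617 probe sets 16098 had 1 gene symbol and none several, which gave 14884 genes; the probe set of highest mean stood for a gene, with no filter on dim values.

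RWDD4 minus control clones was fitted over all genes with limma 3.58.1 (lmFit, eBayes; R 4.3.3), two-sided, with Benjamini-Hochberg adjustment. "Rose" and "fell" mean an adjusted p under 0.05. Subunit pairs were tested by exact permutation over 70 relabellings. Of the 8 lists 1 is not reported here. Named were all members, up to 4 genes per list with the largest differences, the 3 genes of nearest pattern per member, and chromosomal neighbours. Alternatives were the variance model, the probe set rule, a filter at the median of all probe sets, 3 scalings, array weights, removal of the span trend (lowess, 0.3), the within-group axis, and each clone left out.

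On simulated data for this comparison (14884 genes) 46.3%, 91.0% and 100% of genes changed by 0.5, 1 and 2 were recovered. False calls numbered 7 among 165. The simulated noise was drawn separately for each gene and held no shared axis of clone differences. These figures therefore say nothing on calls that depend on the axis.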

Additional observations from a re-analysis of the deposited data

Results flagged for a closer look

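In 8 of 170 groups of 4 clones, over the genes named here and the subunit pairs, 1 clone stood apart from the other 3 by a larger share of the group's range than Dixon's 95% critical value. Chance gives about 5% of groups. Among the members this was CDA, where RWDD4 clone 24 (10.65) lay above the other RWDD4 clones (10.30 to 10.35) by 0.851 of the range. Clone 24 stood apart in the same direction in the 3 genes nearest to CDA within groups, which the correlation with CDA had picked: GBP3 (7.76 against 6.85 to 6.99; 0.847), IGFBP3 (7.72 against 6.84 to 6.91; 0.920) and MYO7B (7.14 against 6.18 to 6.28; 0.895). RWDD4 itself was lower in RWDD4 clone 6 (9.87 against 10.42 to 10.46; 0.936), and so was CYS1, a neighbour of RRM2 (5.92 against 6.22 to 6.24; 0.938). PRPS1 was lower in control clone 2 (8.10 against 8.72 to 8.78; 0.911), and NARF was higher in control clone 3 (8.95 against 8.79 to 8.81; 0.831).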

How the results depend on the processing

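RRM1, RRM2B and CDA passed in every fit except the one with the within-group axis. The members that rose numbered 3 with the span trend removed (RRM1, RRM2B and TYMS) and 4 after quantile normalization, without RWDD4 clone 24 and without RWDD4 clone 5. Of all 14884 genes 3524, 3429, 3585 and 3372 rose in these fits, in that order, against 3741 with all clones and the deposited values. With the axis as a covariate limma passed 1 gene of all 14884 (0 rose, 1 fell), with 1910 at an unadjusted p under 0.05. It passed 0 members (0 unadjusted) and 0 of 78 listed pathway genes (8 unadjusted). In the other fits 44 to 54 pathway genes passed, and 5630 to 7223 of all genes. The 78 genes are those measured on all 8 lists, including the list not reported here. With the axis as a covariate RWDD4 lay at 1.88 (adjusted p 0.159 by limma). The gains within arrays, with this covariate added after the data were seen and no test, were 0.51 for RRM1 over RRM2, 0.27 for RRM2B over RRM2 and -0.25 (SE 0.33) for RRM2B over RRM1. Signs that turned with the axis were DCTD (-0.29), TYMS (-0.35), BBC3 (0.15), CDKN2AIP (-0.12), CYFIP1 (-0.12), ICMT (-0.17), PHLPP1 (-0.16), PSPC1 (-0.10), SMNDC1 (-0.31), TCF20 (-0.56), THOC5 (-0.15), TMEM248 (-0.46), UMPS (-0.06), UPP1 (0.36) and NCALD (0.02). NCALD also turned with the mean of its probe sets (0.02), quantile normalization (0.00) and cyclic loess (0.03), CLDN22 with the span trend removed (0.06) and CLDN24 without control clone 4 (-0.03, against up to 0.21 without other single clones). The cause was not tested. With 4 against 3 clones the permutation test cannot pass, since its smallest p is 0.0571. No paired analysis was possible because the labels give no pairing of clones. The clone number 5 found in both groups was taken as a name. No level of background was measured, which limits RRM2B in control clone 2.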

Other observations

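Genes beside the members on their chromosomes did not all move with them. Of 15 nearest or overlapping protein-coding neighbours in the reference gene table (GRCh38.p14) 9 were measured. YES1, a kinase of the SRC family next to TYMS, lay between 9.52 and 9.88 with RWDD4 and at 6.18, 8.21, 7.38 and 7.85 in control clones 2, 3, 4 and 5, a rise of 2.26 (SE 0.35; 4.79-fold; adjusted p 0.000506 by limma) beside the 0.60 of TYMS. MOB1B, next to DCK, rose by 1.28 (2.42-fold), and PINK1, a mitochondrial kinase next to CDA, fell by 0.74 (1.67-fold), with no overlap of the groups. CYS1, next to RRM2, fell by 0.58, while HPCAL1 on its other side lay at -0.21 and did not pass. STIM1, next to RRM1, fell by 0.27 (adjusted p 0.0409 by limma), a call lost, among other settings, without any 1 of RWDD4 clones 17, 5 and 6 and of control clones 2, 3 and 5, where it lay between -0.28 and -0.23. NCALD beside RRM2B and CLUL1 beside TYMS did not pass, at -0.06 and -0.18.

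DCTD and RWDD4 lie on the same chromosome with 5 protein-coding genes between them, of which 4 were measured. WWC2, the one next to DCTD, rose by 0.77 (SE 0.13; adjusted p 0.000966 by limma) and CDKN2AIP by 0.89 (SE 0.18; adjusted p 0.00244), while the claudin genes CLDN22 and CLDN24 lay at -0.20 and 0.09 and had group means of 3.34 to 3.61, below the median of all probe sets. TRAPPC11, the neighbour of RWDD4 on its far side, lay between 7.10 and 7.68 with RWDD4 and between 5.26 and 5.90 with the empty vector, a rise of 1.80 (SE 0.18; 3.48-fold; adjusted p 6.8e-05 by limma). DCTD, at 0.22, moved less than these 3 genes did; differences between them were not tested. With the axis position in the model TRAPPC11 and WWC2 lay at 0.96 and 0.36 and CDKN2AIP at -0.12, and none of the 3 passed.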
